A study of Mus musculus with 2 samples.

Results

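The heart's small heat shock protein genes Hspb1, Hspb2, Hspb3, Hspb6, Hspb7, Hspb8 and Cryab, together with the co-chaperone gene Bag3, are described here. They were chosen by symbol in the deposited transcript table and joined by gene identifier to the gene tables. All 8 were found among 55536 annotated genes. Total RNA was sequenced from heart tissue of adult male mice of strain 5xFAD/CAST, 8 to 10 months old, from 300 ng of RNA per library with spike-in RNAs. In 5xFAD mice, human amyloid precursor protein and presenilin transgenes are driven by a promoter used for expression in neurons, and CAST is an inbred strain of wild origin. There was 1 group of 2 libraries, from separate tissue samples that carry 1 donor identifier between them. How far their spread reflects separate animals is therefore not known. No untreated, wild-type or other control group was analysed here, so no contrast was tested and no p-value is given.

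Small heat shock proteins share an alpha-crystallin domain and hold unfolding proteins in a soluble state without using ATP. In muscle they bind desmin, titin, filamins and actin, the filaments that bear load at each beat. BAG3 links HSPB8 and other small heat shock proteins to HSP70, and passes damaged filament proteins to the ubiquitin ligase CHIP and to autophagosomes, a route called chaperone-assisted selective autophagy. Several of these genes are targets of heat shock factors, which bind inverted repeats of the bases GAA.

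The stretches shown first are a heat shock element pair shared by 4 start regions, a muscle motif in Hspb3, the intron end that marks a non-coding Cryab RNA, and the bases that separate Hspb1 from a processed copy. Promoter windows of 250 bases before and 50 after the start came from RefSeq on GRCm38.p6. They were found for 6 of the 8 genes, with 7 windows because Hspb6 has a pair of starts. Cryab and Hspb2 had no window, so their start regions were not searched for motifs. The capitals mark GAAGTTTC, read on the gene's strand in each window.
Hspb1, chr5:135887791-135887820, plus strand: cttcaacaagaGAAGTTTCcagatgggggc
Hspb6, chr7:30553170-30553199, plus strand: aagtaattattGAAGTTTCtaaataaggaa
Hspb8, chr5:116422844-116422873, minus strand: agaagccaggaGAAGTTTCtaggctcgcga
Bag3, chr7:128523603-128523632, plus strand: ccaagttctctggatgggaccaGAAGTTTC

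The motif GAANNTTC, a pair of inverted GAA units that reads the same on both strands, was present in 5 of the 7 windows, against 7.86% of 32851 mouse windows of the same length. Its first base lay at -117 and -97 from the start in Hspb1, at -120 in Hspb6, at -224 in Hspb3, at 3 in Hspb8 and at 43 in Bag3. The exact form GAAGTTTC, searched on both strands and chosen after the windows had been read, was in 4 of these genes and in 1.21% of all windows. The opposite pair TTCNNGAA was in 0 of the 7 windows and in 8.52% of all. Runs of 3 alternating units, GAANNTTCNNGAA or TTCNNGAANNTTC, which contain both pairs, were also in 0 of the 7 and in 0.603% of all. The Hspb7 window held none of the motifs searched. Hspb1 was the gene with a pair of matches, 20 bases apart in the 250 bases before its start, chr5:135887669-135887918 on the plus strand, with both in capitals.
Hspb1 upstream: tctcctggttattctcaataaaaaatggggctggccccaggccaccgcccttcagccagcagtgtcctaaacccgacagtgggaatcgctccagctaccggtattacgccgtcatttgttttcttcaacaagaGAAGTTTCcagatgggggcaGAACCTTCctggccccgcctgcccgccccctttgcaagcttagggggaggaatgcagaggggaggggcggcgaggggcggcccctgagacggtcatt

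Hspb3 also held a consensus site of MEF2, a muscle transcription factor family, with its first base at -12, and so did 0.557% of all windows. That site contains a TATAAA box, which was in the Hspb3 and Hspb6 windows and in 13.6% of all windows on either strand. The CArG box, the site of serum response factor, was in none of the 7 windows and in 1.63% of all. These matches describe letters and not bound sites.
Hspb3, chr13:113663669-113663698, minus strand, MEF2 motif in capitals: gcagaggcggCTATAAATAGccattcattg

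All 8 genes were expressed at 1 TPM or more in both libraries. TPM is a length-corrected share of all transcripts, scaled to the same total in each library, and is given as mean ± SD with n = 2. The median over the 8 genes was 139 TPM, against 7.62 TPM over 10754 detected nuclear protein-coding genes. Summed, the 7 small heat shock protein genes reached 2439.9 TPM in library 1 and 2459 in library 2. With Bag3 they made up 0.778% and 0.780% of all nuclear protein-coding TPM. Levels came from a first quantification with gene and transcript tables, and a second quantification of the same reads served as a check of the processing. The SD is between libraries and does not cover the choice of quantification.

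Cryab encodes αB-crystallin, a chaperone of desmin, and its gene lies at chr9:50751325-50756636 on the plus strand of mm10. Over all its transcripts, coding and non-coding, it stood at 1144 TPM in library 1 and 1175 in library 2, or 1159 ± 22.2 TPM. At that level it ranked 22 among 22015 nuclear protein-coding genes. The libraries thus lay close together and above the next gene of the family, Hspb7, when all Cryab transcripts were counted. With protein-coding transcripts only, Cryab stood at 639 and 615 TPM and its range overlapped that of Hspb7. With all transcripts counted, its nearest neighbours in level were Atp5g1 (1189.6 TPM), an ATP synthase subunit, the muscle creatine kinase Ckm (1144 TPM) and the lipoprotein lipase Lpl (1131 TPM). Cryab held 46.9% and 47.8% of the summed TPM of the 7 small heat shock protein genes. In the second quantification it stood at 1328 and 1406 TPM and held 52.0% of the family on average.

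Hspb7, also called cvHSP, encodes a cardiovascular small heat shock protein that binds filamin C and lies at chr4:141420779-141425311. It stood at 618 TPM in library 1 and 573 in library 2, or 595 ± 32.1 TPM, which is rank 64. Both values were below both Cryab values over all transcripts, and Cryab was 1.85 and 2.05 times as high. The order was the opposite in raw counts: Hspb7 had 54693 and 47683 expected counts, 2.30 and 2.10 times those of Cryab. The single annotated Hspb7 transcript is 2769 bases long with 507 coding bases, while the leading coding transcript of Cryab is 836 bases long with 525 coding bases. The libraries' mean share of Hspb7 in the family was 24.3% ± 1.44.

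Hspb6 encodes HSP20, which binds BAG3 and is phosphorylated after beta-adrenergic stimulation, and lies at chr7:30552178-30555443. It stood at 346 and 371 TPM, or 358 ± 17.8 TPM, rank 132. Hspb8 encodes HSP22, the main partner of BAG3, and lies on the minus strand at chr5:116408491-116422864. It stood at 177 and 172 TPM, or 175 ± 3.51 TPM, rank 277. The Hspb6 values were 1.95 and 2.15 times the Hspb8 values, and the groups of values did not overlap.

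Bag3, at chr7:128523616-128546981, stood at 104 TPM in library 1 and 92.5 in library 2, or 98.4 ± 8.35 TPM, rank 487. Hspb8 was above Bag3 in both libraries, by 1.70 and 1.86 times, or 1.78 ± 0.115. The 7 small heat shock protein genes together reached 23.4 and 26.6 times the Bag3 level. Bag3 lay nearest in level to the calponin-domain gene Limch1 (97.5 TPM), the ribosomal protein gene Rpl39 (96.9 TPM) and the mitochondrial elongation factor gene Tufm (99.9 TPM).

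Hspb1 encodes HSP25, the mouse form of HSP27, an actin-binding chaperone, and lies at chr5:135887919-135889563. It stood at 99.3 TPM in library 1 and 109 in library 2, or 104 ± 6.79 TPM, rank 464. Its values overlapped those of Bag3: Bag3 was the higher of the pair in library 1 and Hspb1 in library 2. In the second quantification Hspb1 was above Bag3 in both libraries, by 1.10 and 1.34 times. This was the only adjacent pair in the order of the 8 genes whose ranges overlapped in the first quantification with all transcripts counted.

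The Hspb1 level is uncertain because 55.4% of the 1030 runs of 31 bases in its transcripts also occur in other genes, Hsp25-ps1 and Gm9817. Hsp25-ps1 is a processed pseudogene at chr13:45078498-45079127, minus strand, and overlaps Gm9817, which lies on the other strand. It aligned without gaps to positions 141 to 770 of Hspb1-201, counted from 1 at the transcript's 5′ end, which are the Hspb1 coding bases with the stop codon. Of 630 aligned bases 626 were identical, and the differences, Hspb1 base first, were C146T, G699A, T701C and T749C. These are differences in the reference, and whether these mice carry them was not tested. The 30-base windows at positions 686 to 715 and 735 to 764 show the last 3 of them in capitals.
Hspb1-201 from 686: gatcaccattccgGtTactttcgaggcccg
Hsp25-ps1 from 686: gatcaccattccgAtCactttcgaggcccg
Hspb1-201 from 735: gaagctgggaagtcTgaacagtctggagcc
Hsp25-ps1 from 735: gaagctgggaagtcCgaacagtctggagcc

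The copy was assigned 12.1 TPM in library 1 and 12.5 in library 2, from 213 and 206 expected counts, and 10.7 and 11.2 TPM in the second quantification. Gm9817 was assigned 3 and 8 expected counts. Hspb1 and the copy summed to 111 and 121 TPM, a mean of 116. With the copy added, Hspb1 was above Bag3 in both libraries.

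Hspb2 encodes a partner of the myotonic dystrophy kinase, and Hspb3 encodes the protein with which HSPB2 forms a muscle complex. Hspb2, at chr9:50751078-50752354 on the minus strand, stood at 48.6 and 51.8 TPM, or 50.2 ± 2.26 TPM, rank 912. Hspb3, a single-exon gene at chr13:113662896-113663676, stood at 7.09 and 7.34 TPM, or 7.21 ± 0.177 TPM, rank 5568. Hspb3 was thus the one member near the middle of the detected genes, with 48.2% of them below it, while 91.5% were below Hspb2. The Hspb2 values were 6.85 and 7.05 times those of Hspb3. With 160 and 156 expected counts, Hspb3 was the least deeply covered of the 8.

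**Figure D1:**
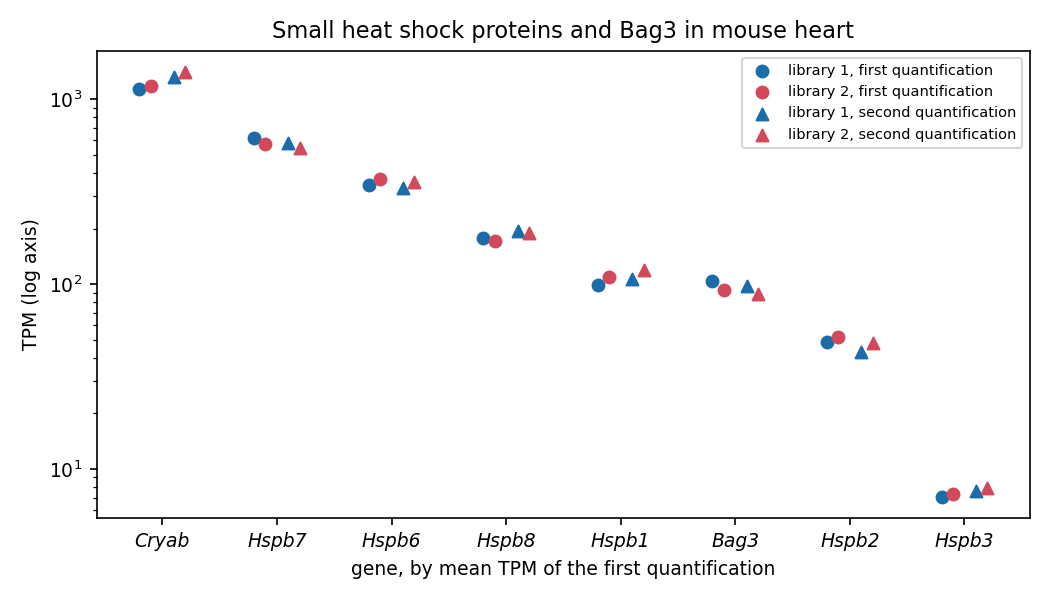
TPM of each gene on a log axis, with library 1 in blue and library 2 in red, circles for the first quantification and triangles for the second. From Cryab at 1144 and 1175 TPM to Hspb3 at 7.09 and 7.34, the first quantification's ranges over all transcripts overlap only between Hspb1 and Bag3 among adjacent genes.

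With all transcripts counted, the ranges of adjacent genes were apart except between Hspb1 and Bag3, and with protein-coding transcripts only those of Cryab and Hspb7 overlapped as well. No member was past 1.2-fold between the libraries in either direction. Over 11940 genes with a mean of at least 1 TPM and at least 10 expected counts in a library, 14.9% were, 7.36% higher in library 2 and 7.56% higher in library 1. The median absolute log2 ratio, taken after adding 1 TPM, was 0.096 over the 8 genes and 0.102 over all genes tested. The genes tested had a median level of 7.14 TPM, against 139 over the 8, so neither comparison is like for like.

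The differences between libraries were small but in several cases beyond counting error. The ratio of expected counts, scaled by library totals and with an exact 95% interval, lay above 1 for Hspb1, Hspb2, Hspb6 and Cryab, 4 of 8 against 12.8% of all genes tested. It lay below 1 for Bag3 and Hspb7, 2 of 8 against 10.4%. Exact intervals narrow as counts rise, so these shares are not like for like with those of genes with fewer counts. The interval of Cryab was close to 1, at 1.01 to 1.04. Scaled by TMM or DESeq2 in place of totals, its log2 ratio of counts was 0.02, and no interval was computed. Bag3 was farthest from 1, at 0.896 with an interval of 0.868 to 0.925, and a log2 ratio of TPM of -0.17. Hspb7 had a ratio of 0.937 (0.925 to 0.948). Hspb1 had the highest ratio, 1.11 (1.05 to 1.17). For Hspb8 the ratio was 0.986 (0.958 to 1.01) and for Hspb3 1.05 (0.835 to 1.31), so neither differed beyond counting error at this depth. The deposited TPM intervals of the libraries were apart for Hspb1 and Hspb6, higher in library 2 like 2.82% of all genes, and for Bag3 and Hspb7, higher in library 1 like 3.14%. Together these were 4 of 8, against 5.96% of all genes in either direction. The deposited intervals are likewise narrower, relative to the level, at higher counts, so these shares too are not like for like.

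**Figure D2:**
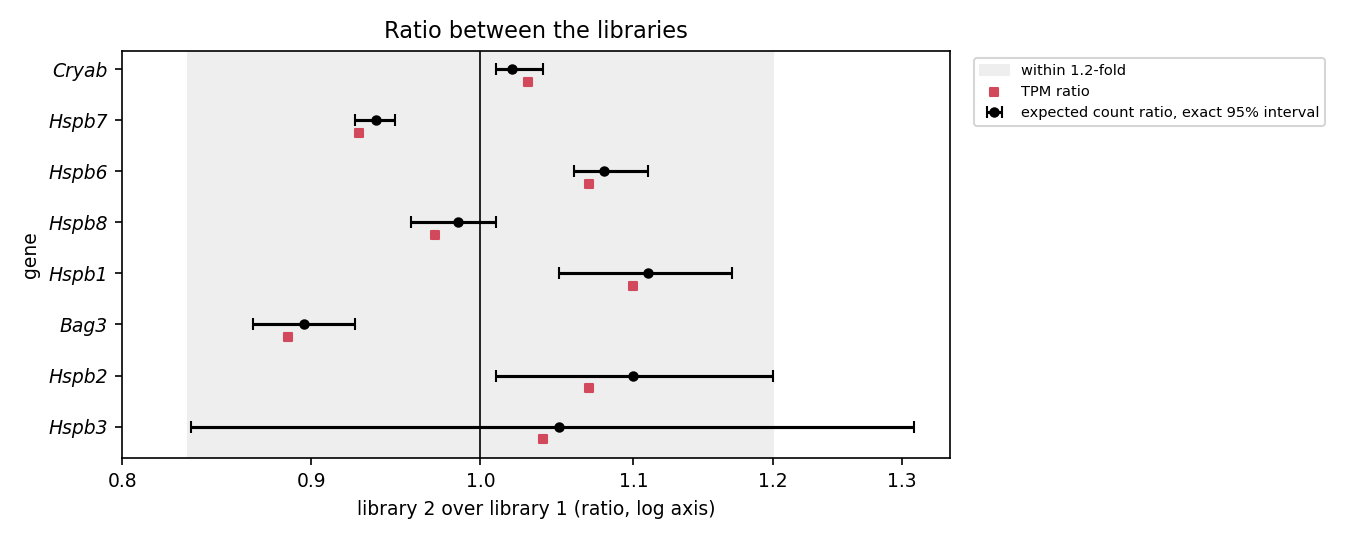
Library 2 over library 1 for each gene on a log axis, as the scaled expected count ratio (black points with exact 95% intervals, counting error only) and as the TPM ratio (red squares), with the range within 1.2-fold shaded. Every point lies in the shaded range, from Bag3 at 0.896 to Hspb1 at 1.11 in counts, and the interval of Hspb3 is the widest.

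Markers of other tissue parts also moved between the libraries. Of 7 adipocyte markers, 6 were past 1.2-fold higher in library 2, and their summed level was 10.7 TPM in library 1 and 39.6 in library 2, with none at 0 in both. Of 7 atrial markers, 6 were past 1.2-fold higher in library 2 and 1 higher in library 1, with sums of 1195 and 1588 TPM. For Gja5, among the 6, the count ratio was 1.11 (0.972 to 1.27). For Nr2f2, the marker higher in library 1, it was 0.960 (0.845 to 1.09), so neither differed in counts beyond counting error. All 8 cardiomyocyte markers were detected, with sums of 28954 and 28778 TPM and none past 1.2-fold. Endothelial markers were higher in library 1 for 6 of 8, with none past 1.2-fold and sums of 459 and 463 TPM. Fibroblast markers were higher in library 1 for 7 of 8, with 1 past 1.2-fold and sums of 227 and 215 TPM. The part of any of these tissues or cells in the ratios of Bag3, Hspb7, Hspb6 and Hspb1 was not tested. In bulk tissue, fewer cells of a type and less RNA per cell cannot be told apart.

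The Cryab level was assigned in part to coding and in part to non-coding annotated transcripts. In the first quantification Cryab-205, a coding transcript of 836 bases, held 54.1% and 50.7% of the gene's TPM. Cryab-204, a retained-intron transcript of 585 bases with no coding sequence, held 44.1% and 47.7%, or 45.9% ± 2.50. By expected counts, which are not corrected for length, the non-coding share was lower, 35.8% on average. The second quantification gave Cryab-204 47.2% in both libraries and Cryab-205 38.5% and 35.7%, so the leading transcript changed with the processing. There Cryab-203 held 8.09% and Cryab-202 held 6.58%, against 0.149% and 0 in the first quantification.

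Of the 585 bases of Cryab-204, 468 are shared with other Cryab transcripts, so its share depends on how reads were assigned. Reads on its own bases were not counted separately, and unspliced Cryab RNA was not told apart from this transcript. The 117 bases that are its own are the end of an intron, chr9:50754395-50754511 on the plus strand of mm10, whose last bases, in capitals, are the AG before the exon.
Cryab-204 own bases: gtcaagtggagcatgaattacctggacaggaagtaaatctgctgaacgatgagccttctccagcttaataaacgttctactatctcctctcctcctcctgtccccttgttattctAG

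Among the 5 coding transcripts, 4 carry a complete coding sequence, and it is the same 525 bases in all 4, so the choice between them leaves the encoded protein of 175 residues the same. The assigned split between coding and non-coding transcripts bears on the order of the family. Hspb7 has a single annotated transcript, a coding one, so no such split could lower its level. Counting only protein-coding transcripts, Cryab was 1.03 and 1.07 times as high as Hspb7, which stood at 618 and 573 TPM. In the second quantification the coding transcripts of Cryab stood at 701 and 743 TPM, 1.21 and 1.36 times Hspb7. Cryab's share of the family's TPM was 32.7% when only coding transcripts were counted in the first quantification.

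**Figure D3:**
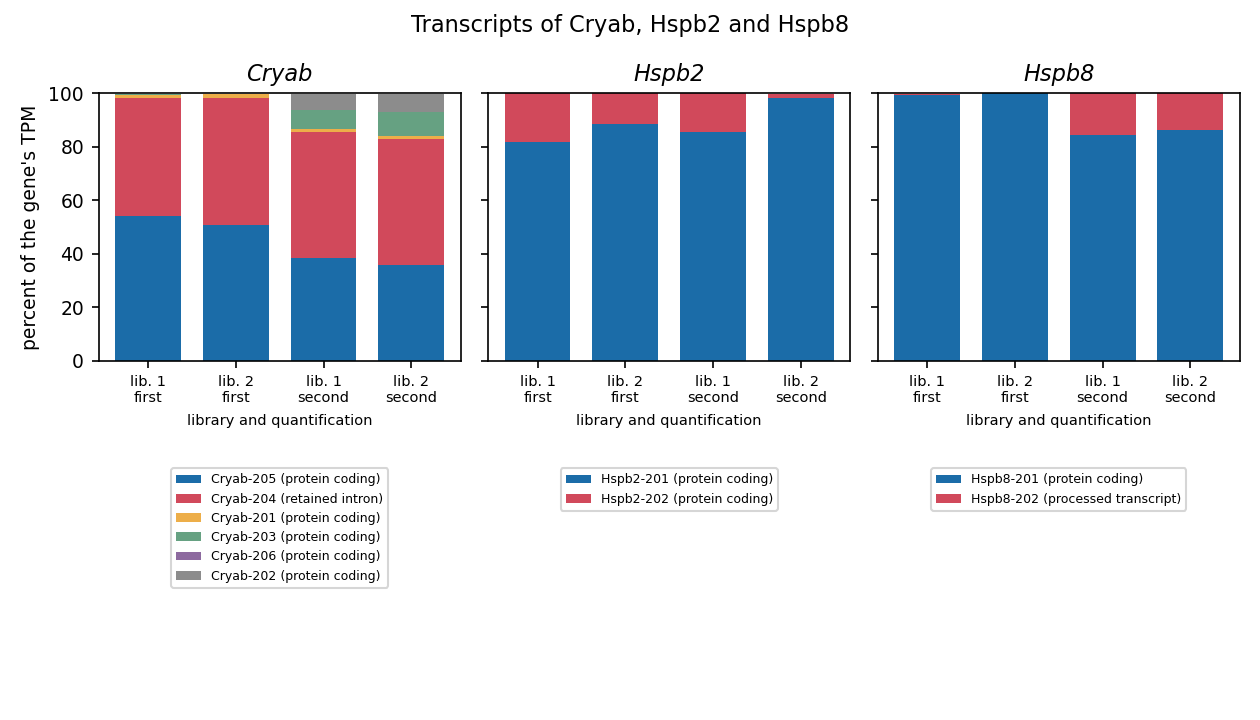
Percent of each gene's TPM held by its annotated transcripts for Cryab, Hspb2 and Hspb8, as stacked bars for the 2 libraries in the first and the second quantification. Cryab-204 (red, left panel) holds 44.1% to 47.7% in all 4 bars, and Hspb8-202 (red, right panel) holds 15.7% and 13.6% in the second quantification.

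The other members showed a single dominant transcript. Bag3, Hspb7 and Hspb3 have 1 annotated transcript each. Hspb1-201 held 99.8% and Hspb6-201 held 99.6% of their genes on average. Hspb2-201 held 81.9% and 88.6%, and 85.4% and 98.4% in the second quantification. For Hspb8, the coding Hspb8-201 held 99.4% and 100%, but the non-coding Hspb8-202 received 15.7% and 13.6% in the second quantification, against 0.581% and 0 in the first. Of the 5 members with several transcripts, 4 had the same leading transcript in both libraries and both quantifications, against 70.2% of 10392 such genes. The exception was Cryab. At the gene level no member was past 1.5-fold between quantifications, against 1.61% of all genes higher and 3.16% lower in the second. The extremes were Cryab, 1.18 times as high in the second, and Hspb2 at 0.907. In counts scaled by library totals these were 1.03 for Cryab and 0.849 for Hspb2.

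Cryab and Hspb2 are head-to-head neighbours on opposite strands, with 726 bases between the starts of Cryab-205 and Hspb2-201. The annotated spans overlap by 1030 bases because of long Cryab forms, but only Cryab-206 has exon bases in Hspb2, 252 of them. That transcript was assigned 0.480 TPM in library 1 and 0 in library 2. In sequence, 26.7% of the 31-base runs of Hspb2 and 14.8% of those of Cryab occur on the other gene's transcripts on either strand. The kit was directional per the labels, but whether counting used the strand is not given in the sources used here. Despite the shared start region, Cryab was 23.6 and 22.7 times as high as Hspb2, and 30.8 and 29.4 times in the second quantification. With coding transcripts only, the Cryab level was still 639 and 615 TPM against 48.6 and 51.8 for Hspb2.

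**Figure D4:**
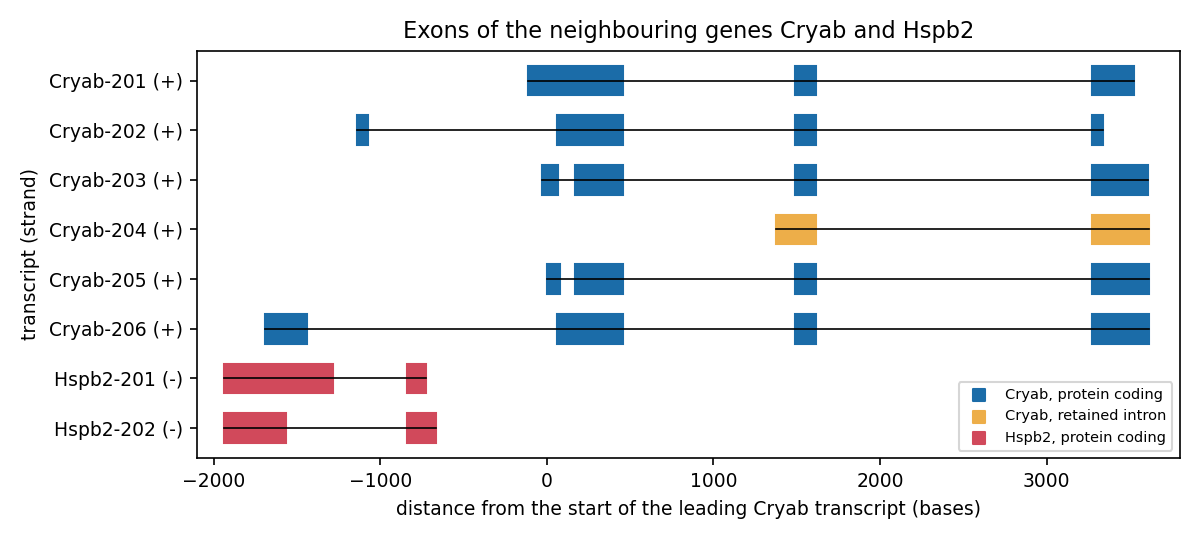
Exons (boxes) of the Cryab and Hspb2 transcripts by distance in bases from the start of Cryab-205, with strands in parentheses. Only Cryab-206 reaches into the exons of Hspb2, by 252 bases, and the retained-intron Cryab-204 starts inside the gene.

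Other neighbours of the members were low. Proser3 and Lin37, which overlap the ends of Hspb6 by 122 and 3 bases on the other strand, stood at 1.21 and 4.33 TPM. The miRNA gene Gm38670 within Hspb6 is listed at 0 and 2610306O10Rik within Bag3 at 0.460 TPM. 2310030G06Rik, near Hspb2 and Cryab, stood at 1.56 TPM. Hspb8, Bag3 and Hspb3 had no 31-base run in another gene, Hspb6 shared 6.07% of its runs with Gm38670 and Proser3, and Hspb7 shared 1.11%, a repeat found in 2742 other genes.

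The other small heat shock protein genes were near or at 0. Cryaa, the lens αA-crystallin, and Odf1, a sperm tail protein, had 0 counts in both libraries, which allows up to 3 counts of 39819960 in library 1 and of 37060119 in library 2. Hspb9, a testis gene, had 0 and 3 counts. Hspb11, a ciliary transport protein, was the exception at 3.93 and 5.00 TPM, or 4.46 ± 0.757.

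Among the other BAG genes, all 5 were detected and all lay below Bag3 on average. Bag6, which guards membrane protein precursors, stood at 81.2 ± 1.82 TPM and Bag1, an exchange factor for HSP70, at 79.9 ± 0.304. Both were below Bag3 in each library, though Bag6 at 82.5 TPM and Bag3 at 92.5 were closer in library 2. Bag2, an inhibitor of CHIP, followed at 13.2 TPM, then Bag5 at 6.34 and Bag4 at 1.98. Bag4 was past 1.2-fold higher in library 1 in TPM, but its count ratio was 1.12 (0.932 to 1.35), on the other side of 1.

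The partners of BAG3 in selective autophagy were all detected, 10 of 10, with a median of 112 TPM and none past 1.2-fold between libraries. Hspa8, the constitutive HSP70, was highest at 374 and 377 TPM, above Hspb8 and Bag3. Map1lc3a, an autophagosome protein, stood at 260.0 TPM, and the ubiquitin gene Ubb at 238. The autophagy receptor gene Sqstm1 stood at 138 TPM, Stub1, which encodes CHIP, at 41.3, and Synpo2, which binds BAG3 at the Z-disc, at 31.8.

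The filament and Z-disc proteins on which these chaperones act were higher as a group, with a median of 406 TPM over 10 genes. Tcap, the titin cap, stood at 1365 TPM and Ttn, titin, at 1012, next to Cryab at 1159. Fhl2 stood at 635, Actn2 at 573, Des, desmin, at 423 and Flnc, filamin C, at 74.7 TPM. One gene of the list, Myot, the Z-disc protein myotilin, was past 1.2-fold, with 33.5 TPM in library 1 and 27.4 in library 2 and a count ratio of 0.821 (0.771 to 0.874).

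Heat-inducible genes were mostly detected, 15 of 17, with a median of 29.2 TPM. The pair below 1 TPM was the stress-inducible HSP70 genes Hspa1a, at 0.560 and 0.470 TPM, and Hspa1b, at 0.460 and 0.660. They are near-identical copies, so reads may have been split between them, but their sum was still far below Hspb3, the lowest member. The constitutive Hspa8 led this list, which also held the chaperonin gene Hspd1 at 124 TPM and Fkbp4, an HSP90 cochaperone, at 120.3. Of the 15, none was past 1.2-fold between libraries.

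The heat shock factors lay well below most of the members. Hsf1, the main stress-responsive factor, stood at 12.2 ± 0.615 TPM, Hsf2 at 4.79, Hsf4 at 1.57 and Hsf5 at 0.0150 from 3 and 1 counts. Hsbp1, a binding protein that restrains HSF1, was higher at 53.2 ± 0.0354 TPM.

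Among the larger chaperone families, the medians were 9.96 TPM over 15 HSP70 and HSP110 genes, 26.3 over 13 J-domain genes and 46.4 over 21 HSP90, cochaperone and chaperonin genes, all below the 139 of the small heat shock protein and Bag3 genes. The leading genes were Hspa8, the reticulum chaperone Hspa5 at 204 TPM, the mitochondrial Hspa9 at 199 and Hspa4 at 40.6. Dnaja2 at 90.0, Dnaja3 at 49.0, Dnajc7 at 38.9 and Dnajb2 at 31.8 TPM led the J-domain genes. Hsp90ab1, the constitutive HSP90, stood at 362 TPM and Hsp90b1, its reticulum form, at 106. Cryab and Hspb7 were thus above every gene of these 3 lists, and Hspb6 was just below Hspa8 in both libraries. Hspa12a, a distant HSP70 relative, was the one gene of the HSP70 and HSP110 list past 1.2-fold, with 6.96 and 5.45 TPM and a count ratio of 0.899 (0.819 to 0.987).

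**Figure D5:**
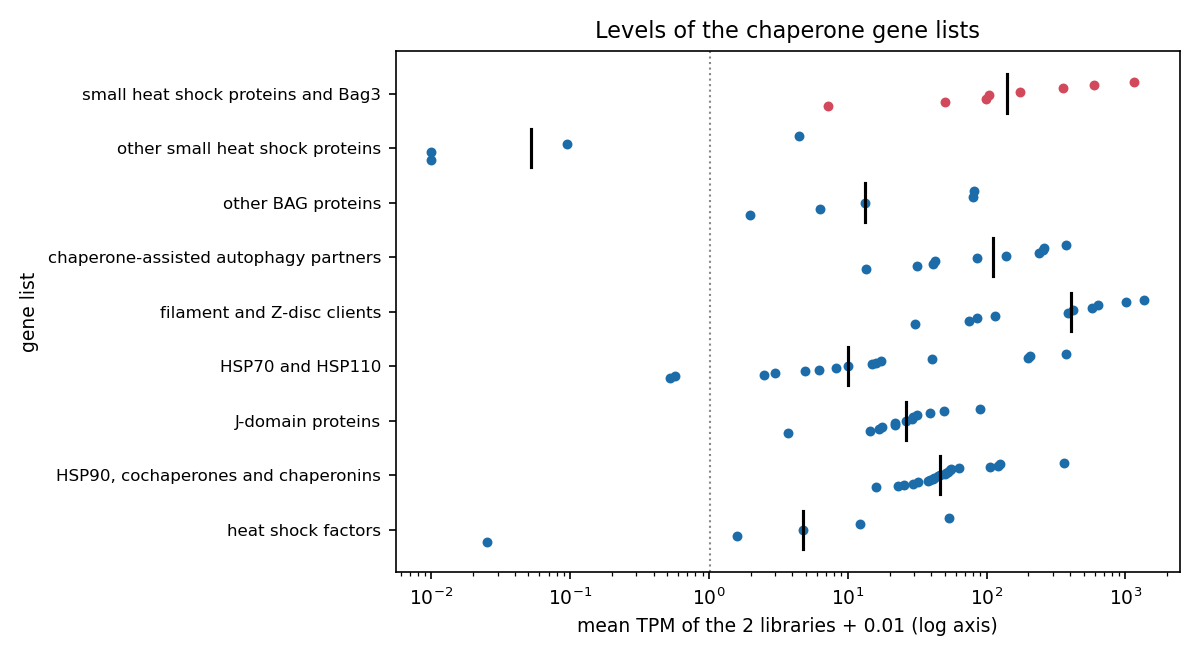
Mean TPM of the 2 libraries on a log axis for each gene (points) of the chaperone lists, with black bars for list medians and a dotted line at 1 TPM. The small heat shock proteins and Bag3 (red) have a median of 139 TPM, between the autophagy partners at 112 and the filament and Z-disc proteins at 406.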

How the data were processed

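Total RNA libraries were made with a directional kit after ribosomal RNA reduction, per the labels. Annotation was GENCODE M21 on mm10, per the deposited readme, while the aligner and the quantification tools were not given in the sources used here. Per the file headers, the first quantification holds expected counts, TPM, FPKM and intervals of a posterior mean TPM, which need not contain the TPM itself. Estimated counts and TPM of the second are deposited by transcript and were summed per gene. Total expected counts were 39819960 and 37060119. The count ratio intervals cover counting error only and take the assignment of reads to genes as given. Neither kind of interval covers the spread between animals.

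The 8 genes and all gene lists were chosen with earlier results of these data known. Named genes were all members, all genes of 3 small lists, the first 4 by mean TPM of the other chaperone, autophagy and filament lists, chaperone or filament genes past 1.2-fold whose count interval excluded 1, the 3 nearest genes in log2(TPM + 1) to Cryab and Bag3, and neighbours within 5 kb. Marker lists are given as sums and counts of genes, with Gja5 and Nr2f2 named for their count intervals. Stub1, Synpo2, Sqstm1, Des, Flnc, Hspa1a, Hspa1b and the pseudogene were added after their values were seen. Count ratio intervals are exact conditional binomial (Clopper-Pearson) at 95%, from rounded expected counts. TMM factors came from edgeR 4.0.16 and size factors from DESeq2 1.42.0. Alignment used Biopython 1.88 and figures matplotlib 3.10.9, with pandas 2.3.3, numpy 2.4.6, scipy 1.17.1, R 4.3.3 and Python 3.11.15. The ratio steps were tested on simulated data. Some genes that the rule takes are left out of the text. Protein sequences were not analysed here.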

Additional observations from a re-analysis of the deposited data

How the results depend on the processing

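The order of the 8 genes by mean level was the same in the second quantification, with protein-coding transcripts only and in library 2 alone. In library 1 alone 6 of 8 kept their place, with Bag3 and Hspb1 exchanged. FPKM also kept the order, but it is proportional to TPM within a library, so it is no separate check. In the second quantification the levels of Hspb1, Hspb2, Hspb3, Hspb7, Hspb8 and Cryab lay 1 SD or more from those of the first. Hspb8, for example, stood at 191 TPM against 175 ± 3.51. The levels of Hspb6 and Bag3 lay within 1 SD. With protein-coding transcripts only, Cryab stood at 627 TPM in place of 1159 and its range overlapped that of Hspb7. With 1 library left out, Cryab's share of the summed TPM of the 7 small heat shock proteins was 46.9% to 47.8%. It was 47.3% over both and 52.0% in the second quantification. There Cryab was 1.18 times as high in TPM but 1.03 times in counts scaled by library totals, and the cause was not tested. With protein-coding transcripts only, an alternative chosen after seeing the data, the share was 32.7%. No member was past 1.2-fold between libraries with a pseudocount of 0.1, with TMM, with DESeq2 size factors or in the second quantification. Each member's ratio kept its sign in all of these, though a change of pseudocount cannot alter a sign. The number of all genes past 1.2-fold was 1782, and it was 3066 without a filter on low values, where more genes were tested, 2551 with a pseudocount of 0.1 and 2177 in the second quantification. Summing Hspb1 with Hsp25-ps1, also chosen after seeing the data, gave 116 TPM in place of 104. No paired analysis was possible because there is a single group. Depth limits Hspb3, whose ratio interval of 0.835 to 1.31 is the widest of the 8. The spread between 2 libraries is itself poorly known.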
